A study of Rattus norvegicus with 49 samples.

Results

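Kidneys of male rats given a low dose of propylene glycol phenyl ether were set against kidneys of rats given the vehicle. The low dose set held every kidney array labelled 1, 10 or 100 mg/kg, 4 arrays at each dose and 12 in all, and the vehicle set the 5 kidney arrays labelled 0 mg/kg. Together these are 17 of the 49 arrays of the study. The choice used the labels and no measured value. Propylene glycol phenyl ether (PPH) is a glycol ether used as a solvent. The animals were Harlan Sprague Dawley rats, an outbred stock, aged 6 to 8 weeks when they were assigned to groups, and nothing in the labels gives any of them a genetic change. All, the vehicle rats included, received corn oil by gavage at 5 mL/kg for 5 consecutive days and were killed on the day after the last dose. The sample titles and compound labels name PPH, whereas the dosing text of the labels names another agent, MCHM, and the titles were followed. Kidneys at 500 mg/kg (3 arrays) and 1000 mg/kg (4 arrays) entered the model for its estimate of the spread and the test of fat content, and their means are quoted beside those of the low doses with no test.

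The kidney filters blood in glomeruli and recovers water, salts, glucose and amino acids along the proximal tubule, the loop of Henle, the distal tubule and the collecting duct, and each of these segments carries its own transporters. It also takes up foreign compounds from blood and conjugates and excretes them. The organ lies in fat, and the fat at its hilum can hold both white and brown adipocytes, so that a kidney sample may carry some of it.

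RNA of whole kidney tissue was measured on Affymetrix rat genome arrays, and every level below is a log2 value made with RMA, a method that corrects background and gives the arrays a common distribution. A difference of 1 on this scale is 2-fold. Of 14217 genes analysed, each was represented by 1 probe set. Array medians lay between 6.65 and 6.77 in the low dose arrays and between 6.70 and 6.75 in the vehicle arrays, and pairs among the 24 kidney arrays correlated across genes at 0.988 to 0.9961. The tissue label fitted its markers: in the low dose arrays the phosphate transporter Slc34a1 of the proximal tubule averaged 13.55, uromodulin (Umod) of the loop of Henle 13.12 and the water channel Aqp2 of the collecting duct 10.28, and in the vehicle arrays they averaged 13.66, 12.95 and 10.22. In tissue RNA, fewer cells of a type and less RNA per cell cannot be told apart. Precision is limited by the number of arrays.

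No gene passed the test in the pooled comparison, in which limma compared the mean of the 3 dose means with the vehicle mean and p-values were adjusted over all genes by Benjamini-Hochberg (0 of 14217 genes, or 0%, at an adjusted p under 0.05). The smallest adjusted p was 0.209. An unadjusted p under 0.05 was found for 1002 genes, 7.05% of those tested, of which 404 (2.84%) were higher and 598 (4.21%) lower at low doses. The median gene differed by -0.0146, and 6069 genes (42.7%) had a higher mean at low doses. The 95% interval of the difference had a median width of 0.159 on either side. For 14134 genes (99.4%) the whole interval lay within 2-fold of the vehicle level, and for 13732 (96.6%) within 1.5-fold. Differences inside a gene's interval are not settled by 12 arrays against 5.

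**Figure D1:**
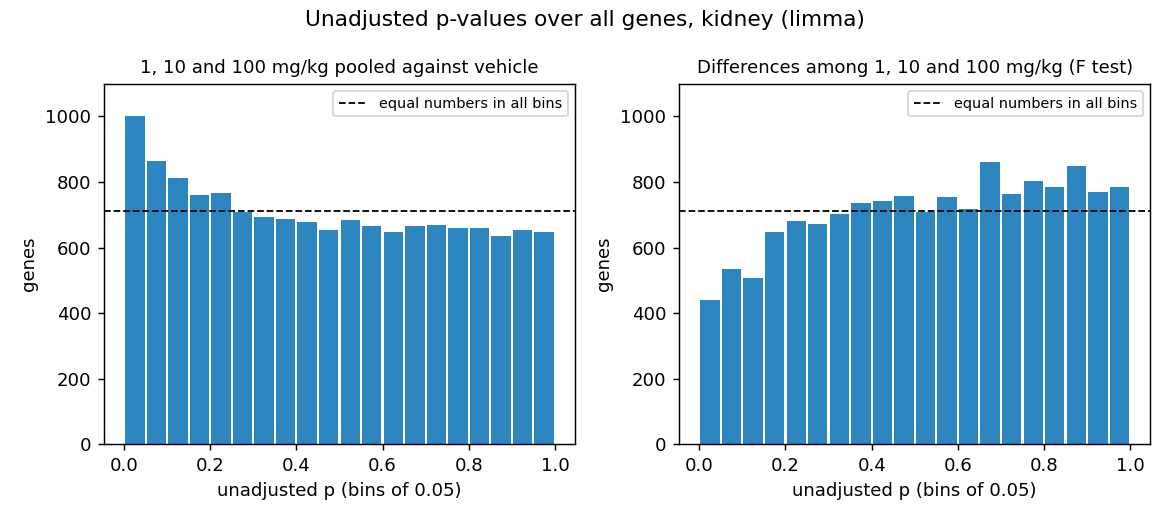
Number of genes (y axis) in each bin of unadjusted limma p-values (x axis) for the 12 low dose kidney arrays against the 5 vehicle arrays (left) and for the F test of differences among 1, 10 and 100 mg/kg (right), with the dashed line at equal numbers in all bins. The lowest bin holds 1002 genes on the left, above the line, and 440 on the right, below it.

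The 10 higher and 10 lower genes with the smallest p all had adjusted p-values between 0.209 and 0.551, so that their values describe these arrays and are not calls. Their differences ranged in size from 0.18 to 0.93. Among the higher genes were enzymes of sulfation and of fatty acid oxidation and the receptor for iron uptake. Among the lower genes were transporters of glucose and creatine, an enzyme of creatine synthesis and proteins of the mitotic spindle and of cytokinesis.

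Tm4sf20, which encodes a multi-pass membrane protein, showed the largest difference of these 20 genes. Its levels were 5.94, 5.98, 6.10 and 5.90 at 1 mg/kg, 6.47, 6.70, 6.12 and 5.54 at 10 mg/kg and 6.50, 6.16, 6.15 and 6.01 at 100 mg/kg, against 5.36, 5.26, 4.52, 5.41 and 5.45 in vehicle kidneys. All 12 low dose arrays lay above all 5 vehicle arrays, although 1 vehicle array, replicate 3, lay far below the others. The means were 6.13 ± 0.31 (SD, n = 12) at low doses and 5.20 ± 0.39 (SD, n = 5) in vehicle kidneys, 1.91-fold apart, with a log2 difference of 0.93 (95% interval 0.55 to 1.31, limma adjusted p = 0.209). The differences of the single doses from vehicle were 0.78, 1.01 and 1.01 in order of dose. At 500 and 1000 mg/kg the means were 5.74 and 5.60, between those of the low doses and of vehicle.

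Papss2, which makes the sulfate donor for sulfation, lay between 8.32 and 8.75 with a median of 8.43 in low dose kidneys, against 8.02 to 8.28 with a median of 8.16 in vehicle kidneys. The groups did not overlap, and the difference was 0.33 (interval 0.16 to 0.49, adjusted p = 0.403). Cables1, an adaptor of cyclin-dependent kinases, lay between 6.13 and 6.87 (median 6.30) in low dose kidneys, against 5.80 to 6.05 (median 6.01) in vehicle kidneys, again without overlap, and differed by 0.38 (adjusted p = 0.536). Its other probe set differed by 0.01. A 4th gene, Trappc2, of a vesicle tethering complex, also had all low dose arrays above all vehicle arrays, at 7.83 to 8.08 against 7.76 to 7.82. These 4 genes are 0.0281% of the genes tested, and Trappc2 was named after its values were seen.

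Slc45a3, of a family of sugar transporters, lay between 7.37 and 7.83 (median 7.62) in low dose kidneys, against 7.16 to 7.41 (median 7.18) in vehicle kidneys. Of the 12 low dose arrays 11 lay above all vehicle arrays, and the difference was 0.35 (adjusted p = 0.325). The fatty acid oxidation enzyme Acadm averaged 12.12 ± 0.07 (SD, n = 12) in low dose kidneys and 11.94 ± 0.09 (SD, n = 5) in vehicle kidneys, a difference of 0.18. Tfrc, the transferrin receptor, which brings iron into cells, differed by 0.25, and its other probe set by 0.42. The electron carrier Cyb5a differed by 0.19 and Fam13c by 0.57, with adjusted p-values of 0.551 and 0.39. Cracdl differed by 0.49 and Stap1, an adaptor of lymphocyte signalling, by 0.35. Vehicle replicate 3 had the lowest Fam13c and Cracdl levels, 3.93 and 5.28, and without it their differences were 0.44 and 0.37. A second probe set of Stap1 differed by only 0.02, and Stap1 levels were low throughout, at 3.26 to 3.99 in low dose kidneys and 3.01 to 3.51 in vehicle kidneys.

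Among the lower genes, Slc6a8, the transporter that imports creatine, had levels of 11.28, 11.47, 11.28 and 11.31 at 1 mg/kg, 10.96, 11.32, 11.41 and 11.26 at 10 mg/kg and 11.40, 11.28, 11.12 and 11.44 at 100 mg/kg, against 11.51, 11.64, 11.91, 11.78 and 11.61 in vehicle kidneys. All low dose arrays lay below all vehicle arrays, the nearest being 1 mg/kg replicate 2 and vehicle replicate 1. The difference was -0.40 (interval -0.58 to -0.22, adjusted p = 0.325), and a second probe set gave -0.37. Gatm, the first enzyme of creatine synthesis, lay between 12.94 and 13.38 (median 13.16) in low dose kidneys, against 13.34 to 13.51 (median 13.35) in vehicle kidneys. Of its low dose arrays 11 lay below all vehicle arrays, and the difference was -0.26 (adjusted p = 0.403). A second, dim probe set of Gatm, at a mean level of 3.76, differed by 0.02.

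Slc2a2, the glucose carrier of the basolateral side of the proximal tubule, lay between 9.63 and 10.16 (median 9.84) in low dose kidneys, against 10.15 to 10.54 (median 10.26) in vehicle kidneys. The groups overlapped in 1 low dose array, and the difference was -0.44 (interval -0.64 to -0.23, adjusted p = 0.39). Vkorc1l1, a relative of the vitamin K epoxide reductase, had the smallest p of all genes, at 6.59 ± 0.13 (SD, n = 12) in low dose kidneys and 6.91 ± 0.07 (SD, n = 5) in vehicle kidneys. Its difference was -0.33 (adjusted p = 0.209), and 11 of 12 low dose arrays lay below all vehicle arrays. Katnal1, a subunit related to the microtubule-severing enzyme katanin, lay between 5.58 and 5.91 (median 5.79) in low dose kidneys, against 5.99 to 6.16 (median 6.08) in vehicle kidneys, without overlap, and differed by -0.31 (adjusted p = 0.209). Lect2, a secreted protein, differed by -0.47, the semaphorin Sema4g by -0.40 and Phactr1, a regulator of actin, by -0.38.

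Besides Slc6a8 and Katnal1, 3 genes had all low dose arrays below all vehicle arrays, and they were named after their values were seen. The mitochondrial ATPase Atad3a differed by -0.15, Nupr2 by -0.21 and the ring finger protein Rnf208 by -0.22, with adjusted p-values of 0.51, 0.657 and 0.616. The 5 genes are 0.0352% of those tested.

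**Figure D2:**
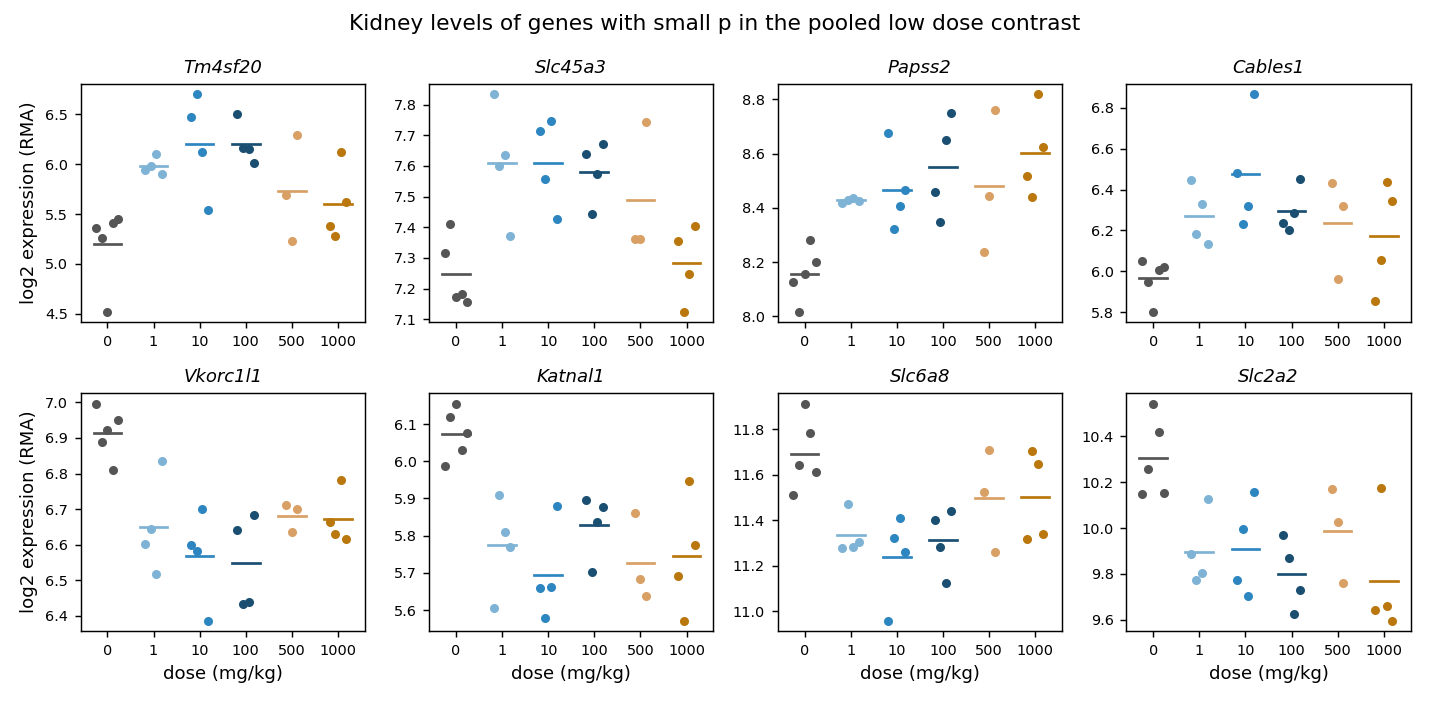
Log2 expression (y axis) of 8 of the genes with the smallest p in the pooled comparison, in each of the 24 kidney arrays by dose in mg/kg (x axis, 0 is vehicle), with horizontal lines at the group means. In Tm4sf20, Papss2 and Cables1 the 12 arrays at 1, 10 and 100 mg/kg lie above the 5 vehicle arrays, and in Katnal1 and Slc6a8 below them.

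The 3 low doses were compared with each other without the vehicle mean, and the vehicle arrays entered only the estimate of the spread. The F test of limma for any difference among 1, 10 and 100 mg/kg called 0 of 14217 genes (0%), with a smallest adjusted p of 0.999, and 440 genes (3.09%) had an unadjusted p under 0.05. The pairwise comparisons called 0 genes each, with unadjusted p-values under 0.05 for 452 genes (3.18%) between 10 and 1 mg/kg, 449 (3.16%) between 100 and 1 mg/kg and 510 (3.59%) between 100 and 10 mg/kg. The 95% interval of the difference between the paired doses lay within 2-fold for 99.2%, 99.3% and 99.1% of genes and within 1.5-fold for 94.7%, 94.8% and 94.5%. Its median width on either side was 0.211, and differences inside a gene's interval were not settled.

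Set against vehicle singly, the doses called 0 genes each (0%) in limma, with smallest adjusted p-values of 1, 0.359 and 0.146 at 1, 10 and 100 mg/kg. The unadjusted p was under 0.05 for 423, 1045 and 971 genes at these doses (2.98%, 7.35% and 6.83%), of which 1.46%, 4.23% and 4.7% of all genes were on the lower side. The doses share their 5 vehicle arrays, so that a common direction against vehicle is partly built in. All 3 dose means lay above the vehicle mean in 2977 genes and below it in 4591, and the signs were mixed in 6649. The 20 genes above all kept 1 sign at the 3 doses, which their selection on the pooled mean partly fixes. Of these 20 genes, 4 had an unadjusted p under 0.05 in the F test among the doses, beside 3.09% of all genes. They were Stap1, Phactr1, Ect2 and Kif2c, and 0 of the 20 passed after adjustment.

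The genes with the smallest p at 10 and 100 mg/kg were largely those already described, and those at 1 mg/kg were not. At 1 mg/kg the homeobox gene Hoxc9 differed from vehicle by 0.61 and Medag, a gene named for adipogenesis, by 0.65, Impg1 by -0.25 and Otulinl by -0.53, and each had an adjusted p of 1. At 10 mg/kg they were Trh (0.36) and Tm4sf20 (1.01) on the higher side and Phactr1 (-0.55) and Lect2 (-0.57) on the lower. At 100 mg/kg they were Stap1 (0.54) and Tm4sf20 (1.01) on the higher side and Ect2 (-0.76) and Kif2c (-0.60) on the lower, the last 2 with an adjusted p of 0.146. The other, dimmer probe sets of Medag differed by 0.098, 0.039 and -0.018 in the pooled comparison, against 0.455 for the one used.

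Trh, the precursor of thyrotropin-releasing hormone, had the smallest p in the F test among the genes open to naming (unadjusted p = 0.000112, adjusted p = 0.999). Its levels were 3.80, 3.92, 3.66 and 3.92 at 1 mg/kg, 4.23, 4.19, 4.14 and 4.19 at 10 mg/kg and 3.93, 3.84, 3.71 and 3.56 at 100 mg/kg, against 3.75 to 3.88 in vehicle kidneys. The 4 arrays at 10 mg/kg lay above all other low dose and vehicle arrays, at a level near the bottom of the scale, and the mean at 1000 mg/kg was 4.15. Cd68, a lysosomal protein of macrophages, was higher than vehicle by 0.24 at 1 mg/kg and differed by -0.20 at 10 mg/kg and -0.01 at 100 mg/kg. The metallothionein Mt1 differed from vehicle by 0.17, -0.27 and 0.44 in order of dose, Cdkl4 by -0.56, 0.38 and 0.20, and the methyltransferase family member Smyd5 by -0.05, -0.002 and -0.29. In none of these 5 genes did the 3 means follow the order of the doses. In Smyd5 1 of the 4 arrays at 100 mg/kg, replicate 4 at 6.20, lay far from the others.

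Genes of the cell cycle had lower means at low doses. This list holds cyclins, mitotic kinases, spindle motors and replication factors. The levels of many such genes follow the number of dividing cells in a tissue, which was not tested here. All 31 measured members had a lower pooled mean (0% higher, beside 42.7% of all genes). Their differences ran from -0.65 to -0.02 with a median of -0.20, beside a median of -0.01 over all genes. An unadjusted p under 0.05 was found for 13 members (41.9%, beside 4.21% of all genes on the lower side). None passed after adjustment, the smallest adjusted p being 0.209. Members of the list share the cells they come from and are not independent of each other.

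Kif2c, a kinesin that takes microtubules apart in mitosis, had levels of 5.03, 4.52, 4.70 and 4.91 at 1 mg/kg, 4.93, 4.56, 4.63 and 4.56 at 10 mg/kg and 4.59, 4.53, 4.44 and 4.35 at 100 mg/kg, against 5.10, 5.22, 5.11, 5.18 and 4.80 in vehicle kidneys. The lowest vehicle array, replicate 5, lay below 3 of the low dose arrays, and 9 of 12 lay below all vehicle arrays. The difference was -0.44 (interval -0.62 to -0.25, adjusted p = 0.209), and a second, dimmer probe set differed by -0.18. Without vehicle replicate 5 the difference of Kif2c at 100 mg/kg was -0.68 with a limma adjusted p of 0.0325, which passes the threshold. That of Ect2 was then -0.84 with the same adjusted p. Leaving out any other single array gave no call at this dose. Ect2 was highest in vehicle replicate 2, at 8.01, and its difference at 100 mg/kg lay between -0.87 and -0.63 with 1 array left out. The same range for Kif2c was -0.675 to -0.562.

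Mki67, the proliferation marker, had levels of 5.87, 5.34, 5.94 and 5.55 at 1 mg/kg, 5.76, 5.42, 5.60 and 5.29 at 10 mg/kg and 4.98, 5.53, 5.54 and 4.67 at 100 mg/kg, against 5.78, 6.10, 6.08, 6.08 and 5.73 in vehicle kidneys. All 4 arrays at 100 mg/kg lay below all vehicle arrays, and 5 of 8 did so at 1 and 10 mg/kg. The pooled difference was -0.50 (adjusted p = 0.578). Cdk1, the mitotic kinase, averaged 6.88 ± 0.37 (SD, n = 12) in low dose kidneys and 7.34 ± 0.33 (SD, n = 5) in vehicle kidneys, cyclin A2 (Ccna2) 5.12 ± 0.31 and 5.65 ± 0.44, and the kinase subunit Cks2 7.17 ± 0.25 and 7.58 ± 0.32. Their differences were -0.46, -0.52 and -0.41, with adjusted p-values of 0.616, 0.615 and 0.604. Ect2, which guides cytokinesis and is not in the list, differed by -0.47 (adjusted p = 0.393), and by -0.55 to -0.34 with 1 array left out.

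The size of these differences followed the order of the doses in most members. In order of dose the list median was -0.10, -0.20 and -0.35, beside medians between -0.02 and -0.005 over all genes. The mean was highest at 1 mg/kg, intermediate at 10 mg/kg and lowest at 100 mg/kg in 22 of the 31 genes (71%), beside 20.1% of all genes, an order that does not depend on the shared vehicle arrays. In the F test among the doses 7 of the 31 had an unadjusted p under 0.05, beside 3.09% of all genes, and 0 passed after adjustment. Against vehicle, an unadjusted p under 0.05 was found for 1, 10 and 18 members in order of dose, all lower, beside 1.46%, 4.23% and 4.7% of all genes. At 500 and 1000 mg/kg the list median was -0.50 and -0.95. Per array, the mean of the list lay between -0.53 and 0.02 of the vehicle mean in low dose kidneys, with a median of -0.23, against -0.15 to 0.25 in vehicle kidneys. At 1 mg/kg 1 array, replicate 2 at -0.34, lay below the vehicle range and 3 within it, whereas all 4 arrays at 100 mg/kg, at -0.20 to -0.53, lay below it.

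**Figure D3:**
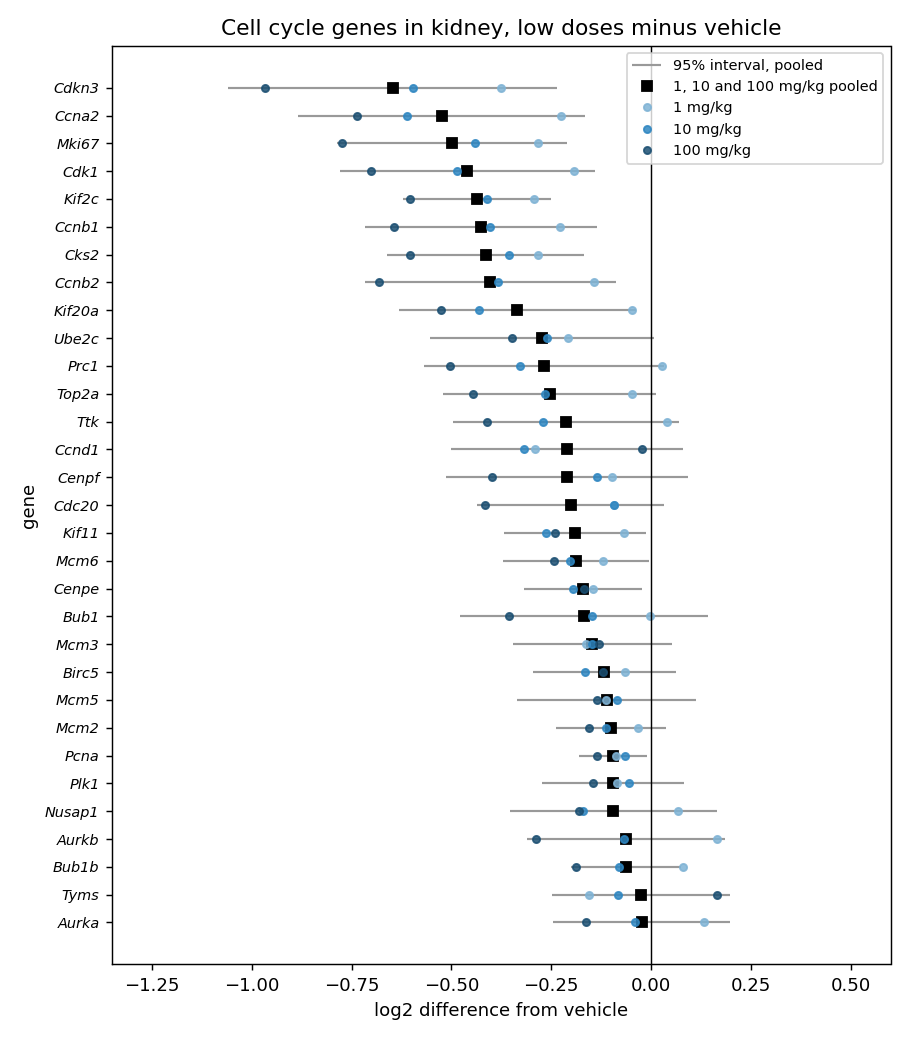
Log2 difference from vehicle (x axis) of 31 cell cycle genes (y axis), with black squares and grey 95% intervals for the 12 low dose kidney arrays pooled against 5 vehicle arrays, and blue points for 1, 10 and 100 mg/kg singly. All squares lie left of 0, and in 22 of the 31 genes the point of 100 mg/kg lies farthest left and that of 1 mg/kg farthest right.

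Genes of the circadian clock varied widely between arrays and differed in both directions. Of 17 measured genes 5 (29.4%, beside 42.7% of all genes) had a higher and 12 a lower mean at low doses. An unadjusted p under 0.05 was found for 1 higher and 5 lower, beside 2.84% and 4.21% of all genes. Dbp, an output factor of the clock, lay between 6.45 and 8.38 in low dose kidneys, against 7.63 to 9.29 in vehicle kidneys, and 9 of 12 low dose arrays lay below all vehicle arrays. Its difference, -1.05 on means of 7.31 ± 0.60 (SD, n = 12) and 8.36 ± 0.72 (SD, n = 5), was the largest among the clock genes (adjusted p = 0.609). The repressor Per2 differed by -0.56 and the activator Bmal1 by 0.68, the opposite direction. Without vehicle replicate 5 Dbp differed by -0.82, Per2 by -0.41 and Bmal1 by 0.41. The list median was then -0.08, against -0.21 in all arrays. The mean of all probe sets of Per2 differed by -0.28. The 3 doses lay close together, with differences in Dbp of -0.97, -1.27 and -0.91 in order of dose. At 1000 mg/kg, however, the mean of Dbp was 8.62 and that of Bmal1 5.15, on the side of vehicle. The hour at which each kidney was taken is not in the labels, and its part in these values was not tested.

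**Figure D4:**
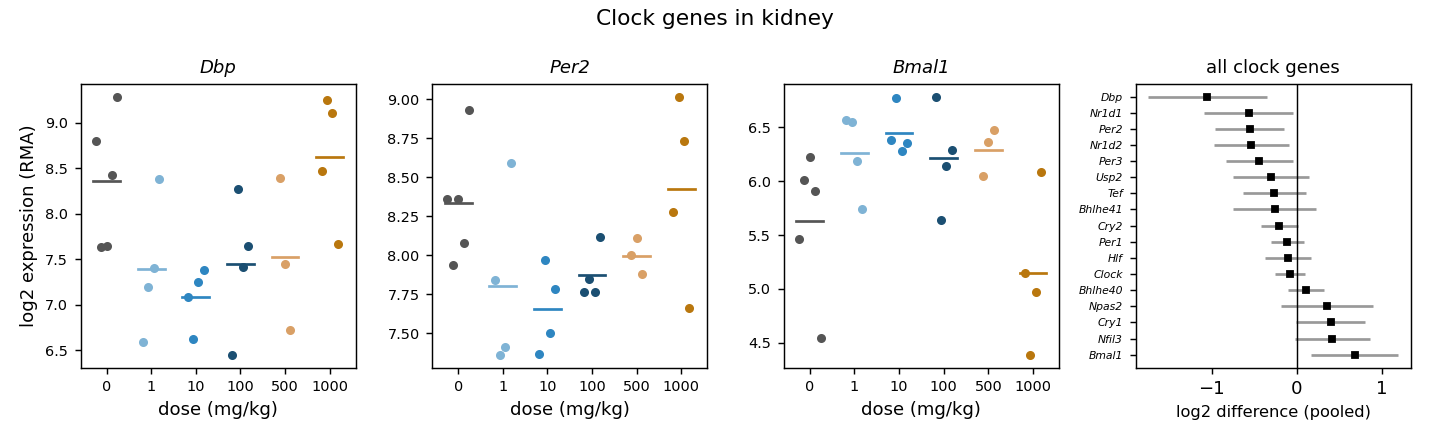
Log2 expression (y axis) of Dbp, Per2 and Bmal1 in each kidney array by dose in mg/kg (x axis, lines at group means), and, at right, the log2 difference of the pooled low doses from vehicle (x axis) with its 95% interval for 17 clock genes (y axis). Dbp and Per2 lie lower and Bmal1 higher at 1, 10 and 100 mg/kg than in vehicle arrays, and at 1000 mg/kg their means lie on the side of vehicle.

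Of 22 proximal tubule markers 7 (31.8%, beside 42.7% of all genes) had higher and 15 lower means. An unadjusted p under 0.05 was found for 2 higher and 3 lower, beside 2.84% and 4.21% of all genes. The endocytic receptor Cubn averaged 10.52 ± 0.19 (SD, n = 12) in low dose kidneys and 10.75 ± 0.12 (SD, n = 5) in vehicle kidneys, a difference of -0.23, and differed by -0.12, -0.17 and -0.40 in order of dose. The peptidase Anpep differed by 0.24. Of 9 markers of the loop of Henle 8 (88.9%, beside 42.7% of all genes) had higher means, with a median of 0.17, and none had an unadjusted p under 0.05, beside 2.84% of all genes. Slc12a1, the salt carrier that loop diuretics block, differed by 0.42 (interval -0.02 to 0.85). Vehicle replicate 3 had the lowest mean of the loop markers, at -0.285 from the vehicle mean. Without this array Slc12a1 differed by 0.295 and Umod by 0.06, against 0.17 for Umod in all arrays.

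Of 15 markers of the distal tubule and collecting duct 5 (33.3%, beside 42.7% of all genes) had higher and 10 lower means, the lower including 5 with an unadjusted p under 0.05, beside 4.21% of all genes. Slc12a3, the salt carrier that thiazides block, averaged 9.05 ± 0.24 (SD, n = 12) in low dose kidneys and 9.41 ± 0.18 (SD, n = 5) in vehicle kidneys, with 8 of 12 low dose arrays below all vehicle arrays and a difference of -0.36 (adjusted p = 0.564). The sodium channel subunits Scnn1b and Scnn1g differed by -0.23 and -0.20. Aqp2 of the collecting duct differed by 0.06 and Nphs1 of podocytes by -0.05.

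Of 15 genes of kidney injury 11 (73.3%, beside 42.7% of all genes) had higher means, with a median of 0.10. Only Anxa2 had an unadjusted p under 0.05, beside 2.84% of all genes (difference 0.28, and 0.17 over the mean of its probe sets). The tubule injury marker Havcr1 (KIM-1) lay between 3.43 and 6.08 in low dose kidneys, against 3.77 to 4.45 in vehicle kidneys. Its medians were 3.81 and 3.94, and 1 low dose array stood at the upper end. Lcn2 (NGAL), a secreted injury marker, differed by 0.22 and overlapped vehicle in 8 of 12 arrays. Without vehicle replicate 3 its difference was 0.12.

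Amino acid and urea metabolism was represented by 23 genes, of which 15 (65.2%) had higher means, beside 42.7% of all genes, with a median of 0.14. An unadjusted p under 0.05 was found for 6 higher and 2 lower, beside 2.84% and 4.21% of all genes. The median was 0.07 without vehicle replicate 3. Hgd, of tyrosine breakdown, lay between 10.61 and 11.05 in low dose kidneys, against 10.43 to 10.81 in vehicle kidneys, with 11 of 12 low dose arrays above all vehicle arrays and a difference of 0.26 (adjusted p = 0.609). Cth, which makes cysteine, differed by 0.36, and by 0.25 without vehicle replicate 3. Of 20 targets of NRF2, the regulator of oxidant defence, 15 (75%, beside 42.7% of all genes) had higher means with a median of 0.09, 5 of them with an unadjusted p under 0.05 (2.84% of all genes) and none lower (4.21% of all genes). They included Gclc, which starts glutathione synthesis (0.42), the malic enzyme Me1 (0.31) and the aldo-keto reductase Akr7a3 (0.24), whereas Nqo1 differed by 0.21 with an interval of -0.05 to 0.47. Vehicle replicate 3 had the lowest Gclc level, 12.38, and without it the differences of Gclc and Nqo1 were 0.22 and 0.05. Per array, the mean of the list lay between 0.03 and 0.23 of the vehicle mean in low dose kidneys, against -0.10 to 0.08 in vehicle kidneys, so that the groups overlapped.

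The list for PPAR alpha, a receptor that turns on the burning of fatty acids, held 34 measured targets, of which 21 (61.8%) had higher means, beside 42.7% of all genes, with a median of 0.08. An unadjusted p under 0.05 was found for 5 higher and 1 lower, beside 2.84% and 4.21% of all genes. Of 17 interferon genes 15 (88.2%, beside 42.7% of all genes) had higher means with a median of 0.14, and Rsad2, Gbp2 and Isg15, with differences of 0.23, 0.28 and 0.29, had an unadjusted p under 0.05, beside 2.84% of all genes. Cyp1a1, the cytochrome induced by aryl hydrocarbons, lay between 5.61 and 9.06 in low dose kidneys, against 5.29 to 9.38 in vehicle kidneys, and differed by -0.07. Gstm1 differed by 0.10. For the 25 ribosomal proteins and 37 respiratory chain subunits measured, the list medians were both 0.00.

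Fat cell markers varied between single arrays in every dose group except 1000 mg/kg. Of 19 measured adipocyte markers 16 (84.2%, beside 42.7% of all genes) had higher means at low doses, with a median of 0.20. The median was -0.035 without the 7 kidney arrays richest in these markers and 0.006 with their mean as a covariate, both of which bring it towards 0 by construction. An unadjusted p under 0.05 was found for Cidec, a lipid droplet protein, and Aqp7, a glycerol channel, beside 2.84% of all genes, and neither passed in the test of the fat level (slope adjusted p = 0.9999 for both). Pck1 and Gpd1, bright at vehicle means of 12.86 and 10.84, did not pass either (slope adjusted p = 0.9999 and 0.484). In that test 9 of the 19 markers passed, so that the list also holds genes that did not follow the fat level. The fat level of an array was taken as the mean over these 19 markers of the log2 difference from the vehicle mean. It lay between -0.45 and 1.47 in low dose kidneys, with a median of 0.07, against -0.30 to 0.52 in vehicle kidneys, with a median of -0.14. A level above 0.5 was found in 5 of 12 low dose arrays and 1 of 5 vehicle arrays. These were 1 mg/kg replicate 1 (0.82), 10 mg/kg replicate 1 (0.51), replicate 3 (0.77) and replicate 4 (1.47), 100 mg/kg replicate 1 (0.77) and vehicle replicate 4 (0.52). At 500 mg/kg 1 array reached 1.15, and the 4 arrays at 1000 mg/kg lay between -0.40 and -0.19.

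Fabp4, the fatty acid binding protein of adipocytes, had levels of 9.99, 7.37, 7.18 and 6.08 at 1 mg/kg, 9.43, 6.70, 9.32 and 11.62 at 10 mg/kg and 9.68, 7.13, 7.78 and 7.30 at 100 mg/kg, against 6.87, 6.91, 8.01, 9.15 and 6.83 in vehicle kidneys. The high arrays were those named above. The hormone adiponectin (Adipoq) reached 7.59 and adipsin (Cfd) 8.77 in 10 mg/kg replicate 4, against at most 6.67 and 7.05 in vehicle kidneys. The pooled differences of Adipoq, Cfd and Fabp4 were 0.30, 0.53 and 0.75, with adjusted p-values of 0.918, 0.936 and 0.877. Not every fat gene moved with the level: Plin1, which coats lipid droplets, lay between 3.84 and 4.27 and the hormone leptin (Lep) between 3.56 and 4.13 in all low dose arrays, with vehicle arrays at 3.85 to 4.19 and 3.81 to 4.09.

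Ucp1, the uncoupling protein that defines brown adipocytes, had levels of 6.67, 4.67, 4.30 and 4.52 at 1 mg/kg, 7.56, 4.78, 6.05 and 11.92 at 10 mg/kg and 9.14, 4.51, 4.82 and 4.48 at 100 mg/kg, against 4.65, 4.81, 4.42, 6.90 and 4.31 in vehicle kidneys. Among these 17 arrays, those with Ucp1 above 6 were the 6 with a fat level above 0.5, 10 mg/kg replicate 4 being the highest and 100 mg/kg replicate 1 the next, and the median of the low doses, 4.80, was near the vehicle median of 4.65. The lipid droplet protein Cidea and the respiratory subunit Cox8b reached 10.56 and 9.97 in 10 mg/kg replicate 4. A mean over 12 brown adipocyte markers was 1.81 in that array, 0.97 in 100 mg/kg replicate 1, 0.69 in 10 mg/kg replicate 1 and 0.32 in 1 mg/kg replicate 1, against at most 0.28 in vehicle kidneys. Of the 12 markers 4 passed in the test of the fat level (Ucp1, Cidea, Cox8b and Pdk4), beside 0.162% of genes outside the adipocyte list. In 10 mg/kg replicate 4 Cpt1b, Dio2 and Adrb3 also lay above their vehicle means. Prdm16, Ppargc1a, Cox7a1, Elovl3 and Slc27a2 did not, at 5.52, 8.17, 4.71, 2.40 and 12.07 against vehicle means of 5.89, 8.29, 4.80, 2.41 and 12.08.

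**Figure D5:**
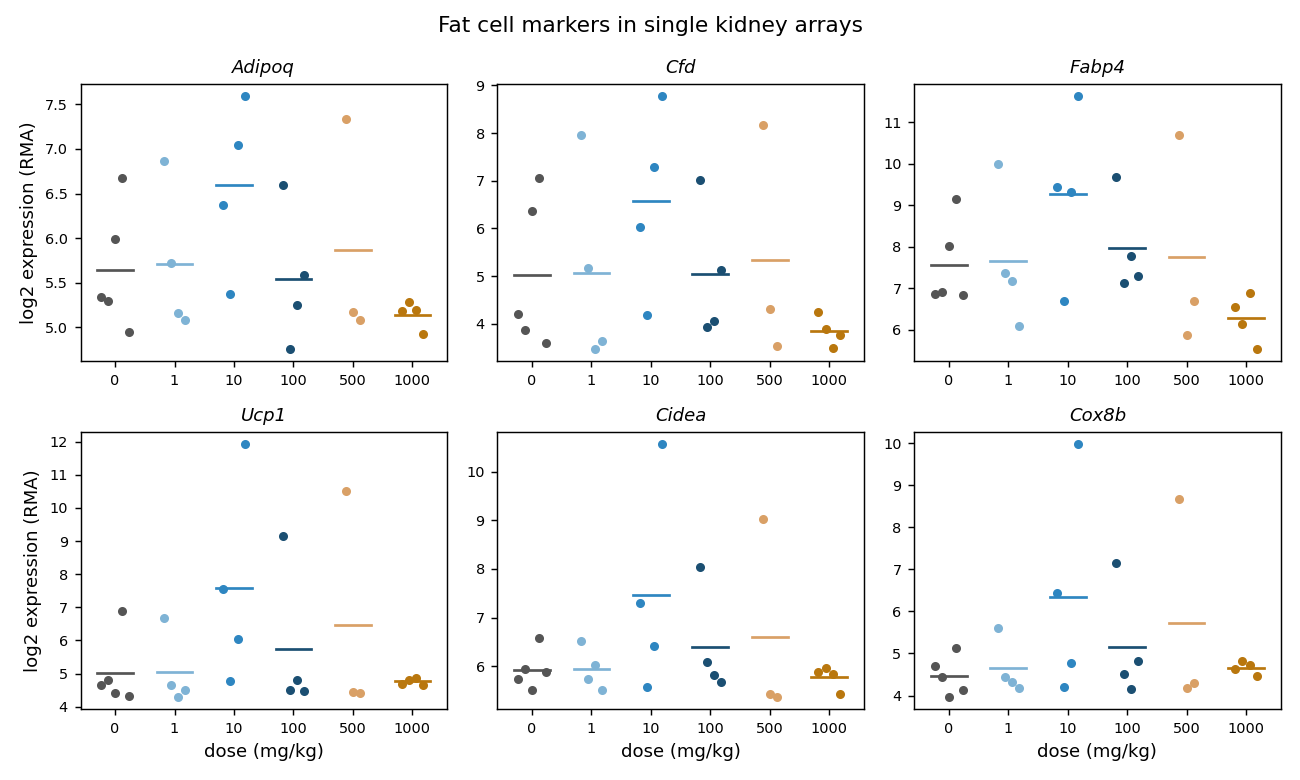
Log2 expression (y axis) of the adipocyte genes Adipoq, Cfd and Fabp4 and the brown adipocyte genes Ucp1, Cidea and Cox8b in each of the 24 kidney arrays by dose in mg/kg (x axis, 0 is vehicle, lines at group means). Single arrays stand above their group, highest in 10 mg/kg replicate 4 with Ucp1 at 11.92, and the 4 arrays at 1000 mg/kg lie together at low levels.

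Within the dose groups of all 24 kidney arrays, 23 genes outside the adipocyte list changed with the fat level (limma slope, 0.162% of the genes tested), all upward. The slope is the log2 change per unit of fat level. The largest was that of Ucp1, 3.58 ± 0.36 (SE), followed by Cox8b at 2.46 and Cidea at 2.02. The amine oxidase Aoc3 had the smallest adjusted p, 1.05e-06, with a slope of 1.11. S100b, Grifin, the retinol carrier Rbp7 and the amino acid transporter Slc36a2 had slopes of 1.19, 1.27, 1.05 and 0.67. Of the 19 markers that make up the level, 9 passed, which is no independent evidence. Without 10 mg/kg replicate 4 and 500 mg/kg replicate 1, the arrays farthest out, 6 genes passed.

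The pooled comparison was repeated with the fat level held equal and without the 7 kidney arrays above 0.5, both chosen after the data were seen. With the fat level as a covariate limma called 0 genes, and 1016 had an unadjusted p under 0.05, of which 865 were among the 1002. Without the high arrays 7 low dose and 4 vehicle arrays were left, limma called 0 genes, and 811 had an unadjusted p under 0.05, of which 403 were among the 1002. A single array, replicate 2, was then left at 10 mg/kg and is assumed to vary like the other groups. The 20 genes with the smallest p kept their direction and an unadjusted p under 0.05 in both, which is largely built in, since they were chosen on the same arrays. Their adjusted p-values were 0.156 to 0.592 with the covariate and 0.8 to 0.852 without the high arrays. Tm4sf20 differed by 0.98 and 1.12, Slc6a8 by -0.41 and -0.35 and Kif2c by -0.46 and -0.49. The median of the cell cycle list was -0.19 and -0.25, and 9 of its members were lower with an unadjusted p under 0.05 without the high arrays, beside 3.92% of all genes.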

How the data were processed

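The authors' deposited table holds log2 expression values per probe set, made with RMA per the submitters' processing notes; its version, and whether both organs were normalized in 1 run, are not given in the sources used here. RMA forces 1 distribution on the arrays, so that a shift of most genes would not show, and without detection calls dim genes are not separated from background. Of 31099 probe sets, 20826 had 1 gene symbol in the platform annotation. Each of 14217 genes was represented by its brightest probe set (mean of 49 arrays), and 4525 of them have several.

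Groups came from the sample titles, which call the samples biological replicates. The text of the series gives 4 samples at each dose with compound, and 3 kidney arrays at 500 mg/kg were analysed here. Limma 3.58.1 in R 4.3.3 fitted 1 mean per dose to the 24 kidney arrays, with empirical Bayes moderation, two-sided tests and Benjamini-Hochberg adjustment over all genes. The F test used the differences of 10 and 100 mg/kg from 1 mg/kg. The models were tested on simulated data with noise drawn separately for each gene and array, so that noise shared between genes was not covered.

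Genes named were the 10 higher and 10 lower with the smallest p in the pooled comparison, 2 each way at each dose, 5 in the F test, 8 in the fat slope, up to 3 for each list described, and a fixed set of markers. Other genes named were chosen after their values were seen. Comparisons, lists and members were chosen with earlier results of these data known. Alternatives changed the probe set rule, the filter on low levels, the normalization, the moderation, array weights, the arrays in the fit, the replicate block and each array in turn. The 25 liver arrays served only to choose probe sets.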

Additional observations from a re-analysis of the deposited data

Results flagged for a closer look

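Among 85 named genes and 2 fat levels, 348 groups of 4 or 5 arrays were examined for a single array far from the rest of its group, and 19 were found (5.46%). Chance alone marks about 1 group in 20. Of the genes with the smallest p in the pooled comparison, Tm4sf20 had a low value of 4.52 in vehicle replicate 3, Cracdl a low value of 5.94 in 1 mg/kg replicate 4, Slc6a8 a high value of 11.47 in 1 mg/kg replicate 2 and Sema4g a high value of 5.51 in 10 mg/kg replicate 1. Without vehicle replicate 3 or any other single array, the difference of Tm4sf20 lay between 0.76 and 1.01. Smyd5 was low in 10 mg/kg replicate 1 (6.57) and in 100 mg/kg replicate 4 (6.20).

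Several of the other values came from arrays with a high fat level. Ucp1 was high in vehicle replicate 4 (6.90), 1 mg/kg replicate 1 (6.67) and 100 mg/kg replicate 1 (9.14). Grifin was high in 1 mg/kg replicate 1 (4.04), Slc36a2 in 100 mg/kg replicate 1 (4.11) and the brown adipocyte level in the same array (0.97). Gstm1 was high in 10 mg/kg replicate 3 (8.40) and Decr1 low in 1 mg/kg replicate 1 (10.75). Elsewhere Cidec was low in 10 mg/kg replicate 2 (8.21), Aqp7 high in vehicle replicate 5 (10.31), Scnn1b low in vehicle replicate 1 (7.16), Akr7a3 high in 1 mg/kg replicate 3 (12.73) and Nphs1 low in 100 mg/kg replicate 3 (5.76).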

How the results depend on the processing

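The count of 0 genes in the pooled comparison was 0 in all alternatives run except the replicate block, and the counts at 1 mg/kg and among the doses were 0 in every one. Over all genes, same-numbered arrays deviated together only weakly. The median correlation of their deviations was 0.08 over 55 pairs and -0.03 over 184 pairs with different numbers. Of 24 arrays 4 correlated best with their own number, which gives no clear sign of pairing. The fat level was above 0.5 in replicate 1 at 1, 10, 100 and 500 mg/kg (0.82, 0.51, 0.77 and 1.15). It was -0.21 in vehicle replicate 1 and -0.29 in 1000 mg/kg replicate 1. The other arrays above 0.5 were 10 mg/kg replicates 3 and 4 and vehicle replicate 4. A link of the fat level with the replicate number was not tested. With the replicate number as a block 1 gene passed in the pooled comparison, Kif2c (-0.51, limma adjusted p = 0.0366), 1 at 100 mg/kg, again Kif2c (adjusted p = 0.0119), and 18 genes changed with the fat level. Only the vehicle group has a replicate 5, so that the block also takes this array out of the comparison with vehicle. The block and the fit without vehicle replicate 5 gave Kif2c the same difference at 100 mg/kg, -0.675, and are not separate evidence. Leaving out 1 array gave 0 to 2 genes at 100 mg/kg, the 2 being Kif2c and Ect2 without vehicle replicate 5. Without the 7 arrays of high fat level 1 gene passed at 10 mg/kg, Cyp3a2 (1.34, adjusted p = 0.022, from 1 array at that dose), which differed by 0.36 in all arrays. The count of 23 genes for the fat level was 6 without the farthest arrays.

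The number of genes with an unadjusted p under 0.05 in the pooled comparison lay between 693 and 1228 with 1 array left out and was 1304 with the replicate block. Among the genes at or above the median level, where fewer genes were tested, it was 658, and 187, 665 and 594 at 1, 10 and 100 mg/kg and 133 among the doses. At 10 mg/kg it was 642 without vehicle replicate 3. The cell cycle median lay between -0.25 and -0.14 in all settings.

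Of 2454 values of single genes under alternatives, 37 had the opposite sign, in 13 genes that had no call, and the cause was not tested beyond the arrays left out. Without the arrays of high fat level the differences were -0.039 for Slc2a4, -0.099 for Adipoq, -0.297 for Cfd, 0.027 for Lep, -0.16 for Fabp4, -0.036 for Cidea, 0.015 for Lrp2, -0.007 for Aqp2 and -0.042 for Gstm1. With the fat level as covariate they were -0.092 for Adipoq, -0.274 for Cfd and 0.001 for Nphs1. With the replicate block they were 0.037 for Lep, 0.025 for Havcr1 and 0.37 for Cyp1a1. Without the 10 mg/kg group they were -0.023 for Adipoq and 0.017 for Nphs1, without the 100 mg/kg group 0.022 for Lep and 0.065 for Havcr1, and without the 1 mg/kg group 0.109 for Cyp1a1. Lep differed by 0.001 with quantile normalization and by 0.003 with centred arrays, and Cd44 by 0.002 with the mean of its probe sets. With 1 array left out Lep ranged from -0.032 to 0.037, Havcr1 from -0.259 to 0.025, Aqp2 from -0.012 to 0.15, Nphs1 from -0.142 to 0.025 and Cyp1a1 from -0.65 to 0.37.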

Other observations

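Some immune genes stood at separate levels within dose groups. RT1-Bb, of the rat major histocompatibility complex, lay near 4 or near 9 in single arrays, from 4.08 to 10.11 in low dose kidneys and from 3.94 to 9.83 in vehicle kidneys. Mx2, an interferon-induced antiviral protein, lay between 3.63 and 10.02 in low dose kidneys and between 4.21 and 10.01 in vehicle kidneys, and its spread within groups (SD 2.49) was among the 3 widest of all genes. RT1-Ba was at 5.23 in 100 mg/kg replicate 4 and at 9.37 or more in the other low dose arrays, and at 4.90 in vehicle replicate 5 and 9.72 or more in the other vehicle arrays.

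The surface protein gene Ly6al lay between 6.80 and 10.01 in low dose kidneys, with a median of 9.13, against 6.37, 5.86, 5.46, 5.95 and 10.37 in vehicle kidneys. All low dose arrays lay above 4 of the 5 vehicle arrays and below the fifth, replicate 5. Car3, a carbonic anhydrase of fat and muscle, had the widest spread within groups (SD 2.68), at 4.17 to 11.17 in low dose kidneys and 4.11 to 10.28 in vehicle kidneys. These genes were named after their values were seen.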
